A study of Mus musculus with 3 samples.

Results

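A total of 127 promoter fragments of vesicle trafficking genes were examined among 7176 promoter viewpoints captured in mouse erythroid cells. A viewpoint is the DpnII restriction fragment, cut at GATC, at a gene's promoter that is pulled down with oligonucleotide probes. The trafficking viewpoints were those named for a Rab, Vps, Snx, Arf, Stx or Copb gene with a number, or for a Vamp or Trappc gene, and repeated names in the viewpoint list were left out. They covered 125 genes, because Rab43 was captured through 3 separate fragments, and 25 of the fragments also carried the name of a neighbouring gene. Gene symbols placed a few genes outside membrane traffic among them: Vps72 encodes a subunit of chromatin remodelling complexes and Rab26os a transcript opposite Rab26.

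Nuclear-titrated Capture-C joins DNA ends that lie near each other in the fixed nucleus, and each unique ligation event between a viewpoint and another fragment of the same chromosome (in cis) was counted. There were 3 libraries of CD71+ ter119+ erythroid cells, selected by the ter119 surface marker, which formed 1 group with no control or contrasting condition. The cells came from the spleen of mice (C57BL/6-cross-CBA/J, F1 hybrid) made anaemic with phenylhydrazine, which destroys red cells and fills the spleen with erythroid precursors, so the data describe stress erythropoiesis. The labels did not say whether the libraries came from separate animals, and these libraries measure no expression, so the cell type was not checked against marker transcripts here.

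Vesicle traffic moves membrane proteins between compartments in a fixed sequence of steps. Arf GTPases recruit coats such as COPI, whose beta subunits are Copb1 and Copb2. Rab GTPases mark the identity of each compartment, TRAPP complexes switch on Rab proteins at the Golgi, sorting nexins and the retromer (Vps26, Vps29, Vps35) recycle cargo from endosomes, HOPS and CORVET tether endosomes and lysosomes, ESCRT proteins bud vesicles into the endosome, and SNAREs (syntaxins and Vamp proteins) fuse the membranes. In erythroid cells this traffic is known for the transferrin cycle: the transferrin receptor is taken up into early endosomes with its iron, is recycled with the help of Snx3 and the retromer, and is shed in exosomes as the reticulocyte matures.

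The promoter sequences were compared first, because they did not depend on the contact counts. RefSeq promoter windows, 250 bases before to 50 bases after the start (build GRCm38.p6), could be placed near 101 of the 127 viewpoints in NCBIM37 (mm9). Placement used an exact match of the bases around the start alone, and short words were searched in the RefSeq windows. The RefSeq start lay inside the viewpoint fragment in 97 of the 101, and outside it for Trappc2, Rab1a, Rab2b and Trappc6a. The word TCACGTGA, the core of the CLEAR element through which the transcription factor TFEB acts on lysosomal genes, reads the same on both strands and stood in 7 of these 101 windows (6.93%), against 153 of 5930 windows of all captured promoters (2.58%). No test was made of this difference. The 7 promoters belonged to Stx6, a syntaxin of the trans-Golgi network, Rab21 and Rab5a, GTPases of early endosomes, Rab24, a Rab linked to autophagy, the retromer subunit Vps26a, and the HOPS core subunits Vps16 and Vps33a. Each site is shown on the strand of its gene, 5′ to 3′, with the CLEAR word in capitals and 20 bases on either side. Vps33a held the word at 2 places, whose windows overlap.
Stx6: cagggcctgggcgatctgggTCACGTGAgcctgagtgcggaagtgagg
Rab21: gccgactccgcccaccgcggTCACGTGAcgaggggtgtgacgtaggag
Rab5a: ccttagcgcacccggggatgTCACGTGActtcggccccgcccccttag
Rab24: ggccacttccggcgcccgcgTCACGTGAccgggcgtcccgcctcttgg
Vps26a: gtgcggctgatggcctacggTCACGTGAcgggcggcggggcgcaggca
Vps16: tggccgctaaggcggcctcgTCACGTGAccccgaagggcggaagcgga
Vps33a, first site: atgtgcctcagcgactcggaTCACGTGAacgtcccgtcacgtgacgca
Vps33a, second site: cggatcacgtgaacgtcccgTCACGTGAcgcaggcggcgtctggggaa

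On mm9 these stretches lay at chr1:157005727-157005774 (Stx6, plus strand), chr10:114752651-114752698 (Rab21, minus), chr17:53618443-53618490 (Rab5a, plus) and chr13:55423313-55423360 (Rab24, minus). The others lay at chr10:61949471-61949518 (Vps26a, minus), chr2:130250017-130250064 (Vps16, plus), and chr5:124023026-124023073 and chr5:124023010-124023057 (Vps33a, minus). The centre of the word stood 148 bases upstream of the start at Vps26a, 92 at Rab5a, 82 at Stx6, 27 at Rab21, 15 at Vps16, and 25 and 9 at Vps33a, and 5 bases downstream of the start at Rab24. Over whole viewpoint fragments, 11 of 127 held the word (8.66%) against 205 of 7176 (2.86%), and the 4 that this added were those of Vps11, Trappc8, Snx2 and Snx16. By family the 11 were 3 of 35 Rab, 3 of 7 HOPS or CORVET, 2 of 18 sorting nexin, 1 of 16 SNARE, 1 of 14 TRAPP and 1 of 4 retromer fragments, and none of the Arf or COPI, ESCRT, GARP or EARP, Vps13 and remaining fragments. The shorter E-box CACGTG, which lies inside the CLEAR word, was in 14 of the 101 member windows (13.9%) and in 11.5% of all. The other words were searched on both strands too. The GC-box GGGCGG was in 76 windows (75.2% against 68.9% of all), CCAAT in 43 (42.6% against 41.9%), and the ETS word CCGGAAGT in 13 (12.9% against 11.5%). AGATAA, a word bound by GATA factors, was in 3, a lower share than in all promoters (2.97% against 5.55%, not tested). Over whole viewpoint fragments the shares for AGATAA were close, with 25 of 127 members (19.7%) against 20.2% of all. The NRF1 word was in 17 windows (16.8% against 13.6%), a palindrome with CGCG at its centre in 2 (1.98%, against 89 of all 5930), and the CTCF core in 4 (3.96% against 3.14%), those of Arf1, Arf2, Rab11fip2 and Vps18. Over whole viewpoint fragments the CTCF core was in 7 of 127 members (5.51%), a lower share than the 6.77% of all.

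Arf1, which recruits COPI to the Golgi, shows how the viewpoints were captured: a 70-base probe lay at each end of its fragment on chromosome 11, which is 361 bases long from its first DpnII site up to the second, with both sites in capitals. The probes covered chr11:59041516-59041585 and chr11:59041811-59041880 of mm9, plus strand.
Arf1 left end: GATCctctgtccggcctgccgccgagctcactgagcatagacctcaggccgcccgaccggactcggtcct
Arf1 right end: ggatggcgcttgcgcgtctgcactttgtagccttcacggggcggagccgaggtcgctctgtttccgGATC

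Capture of the trafficking promoters was as deep as that of the rest. The 3 libraries, called a, b and c after the order of the unnamed columns, held 18230099, 34428035 and 34233560 events in cis over all viewpoints. Over 5 kb windows of the members, b against c stayed within sampling noise (chi-square per window 0.984), while a differed from b by 1.13 and from c by 1.12. Libraries b and c were therefore averaged and counted as 1 sample, and SDs have n = 2, although the study calls its libraries independent. Such an SD leaves out the difference between b and c. Of the 127 members, 120 (94.5%) reached 1000 events over the 3 libraries, against 93.6% of all 7176 viewpoints, and the median was 7209 events against 6481.5. Squared correlations between libraries over 5 kb windows had medians of 0.859 (a and b), 0.854 (a and c) and 0.888 (b and c) over the 120 members. Counts fall with distance in every library, which raises such correlations by itself, so they do not show that single contacts agree.

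The deepest members were 2 Rab genes and a TRAPP gene. Rab8b, a GTPase of exocytosis, had 34564, 55239 and 55174 events in libraries a, b and c. Rab11a, which marks the recycling endosome that returns the transferrin receptor to the surface, had 27947, 43261 and 43299 events. Trappc2 had 22014, 40464 and 40389 events. All 3 lay in deeply captured stretches, Rab8b and Rab11a on chromosome 9 and Trappc2 on chromosome X, which held 10 of the 127 members. Outside these stretches no member passed 28113 events. At the other end stood Rab35, a GTPase of fast endosomal recycling, with 27, 31 and 31 events, the middle fragment of Rab43 with 21, 35 and 49, and the ESCRT subunit Vps37a with 50, 76 and 68. Their fragments were 282, 177 and 495 bases long and 74.5%, 79.0% and 75.2% G or C, where the median member had 846 bases and 58.6%. Across the 127 members, depth rose with fragment length (Spearman's rho = 0.34) and fell with GC content (rho = -0.20), and over all viewpoints the values were 0.27 and -0.24. These are descriptions across viewpoints, which share libraries and probe design.

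**Figure D1:**
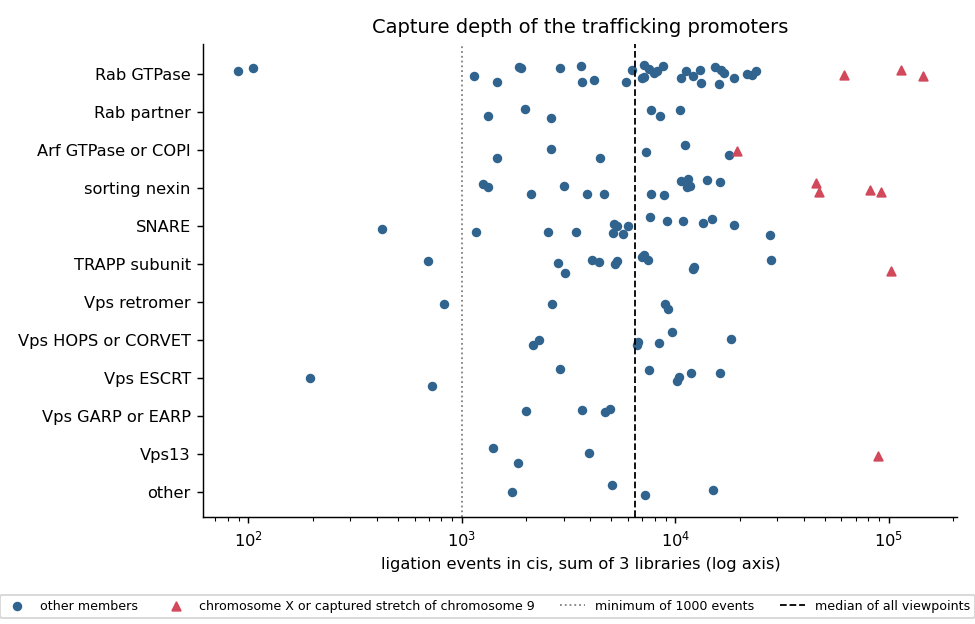
Ligation events in cis (horizontal log axis, sum of 3 libraries) of the 127 trafficking viewpoints, each a point, by family (vertical). Triangles mark the 10 members of the deeply captured stretches, the dotted line the minimum of 1000 events and the dashed line the median of all viewpoints, 6481.5; 7 members lie left of the minimum.

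Every Arf and COPI member passed the depth minimum. Arf2 had 2560, 7617 and 7711 events, Arf3 2669, 4245 and 4187, and Arf6, which acts at the plasma membrane, 1048, 1720 and 1662. Arf4 had 520, 1041 and 1049 events and Arf1 341, 550 and 562. The counts set the ranks of capture, not of gene activity. In the retromer, Vps29 had 1566, 3876 and 3796 events and Vps35 2124, 3501 and 3303, while Vps26b had 678, 1009 and 947 and Vps26a stayed under the minimum with 204, 309 and 310. Snx3, the sorting nexin that works with the retromer, had 507, 803 and 790.

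About 4 in 10 events of a trafficking promoter fell between 2.5 kb and 1 Mb from its midpoint, the range in which contacts were examined. The median local share of the 120 members was 43.7%, with 46.0%, 42.9% and 42.9% in libraries a, b and c (44.4% ± 2.18, SD, n = 2), against 42.3% over all 6718 viewpoints of that depth (43.4% ± 2.81, SD, n = 2). The members' median was the higher in each library, against 45.4%, 41.3% and 41.5% over all viewpoints in a, b and c, a difference that was not tested. The median member had 5.67% of its events at 2.5 to 10 kb, 16.1% at 10 to 100 kb, 20.1% at 100 kb to 1 Mb, 21.8% at 1 to 10 Mb and 32.8% beyond. Library a had the highest local share in 114 of the 120 members (95%) and in 91.3% of all viewpoints.

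The members ranged from 21.5% to 69.4%, and all viewpoints from 0.117% to 76.8%. Among the 81 members with at least 5000 events, Snx32 had the highest local share, 73.6%, 66.5% and 66.8% in libraries a, b and c (68.0% in the sum, exact binomial 95% interval 66.9 to 69.0). Vps25, an ESCRT subunit, followed with 64.8%, 59.3% and 59.7%, and Rab1b, which acts between the endoplasmic reticulum and the Golgi, with 62.4%, 59.8% and 59.7%. The lowest were Vps13c, a lipid transfer protein, with 23.6%, 20.7% and 21.0% (21.5% in the sum, 21.2 to 21.8), Rab28 with 25.1%, 23.6% and 24.0%, and the syntaxin Stx2 with 27.9%, 24.5% and 24.9%. These members were picked as the extremes of the same libraries, so the gap between them follows from the choice. All such intervals cover counting error only. Snx32, Vps25 and Rab1b had 9, 4 and 3 other captured promoters within 100 kb, and Vps13c, Rab28 and Stx2 had 0, 0 and 1. Across the 120 members the local share rose with that number (Spearman's rho = 0.70), and across all 6718 viewpoints too (rho = 0.56), as a description without a test. The families' medians ran from 35.2% (15 SNAREs) to 57.5% (Vps45, Vps72, Vps9d1 and Rab26os, the 4 members outside the families). These 4 ran from 54.1% to 59.6%, above each Arf, COPI, retromer and Vps13 member, while the ranges of all other pairs of families overlapped. The upper quartile over all viewpoints was 49.1%. Vps45, Vps72, Vps9d1 and Rab26os had 38, 27, 19 and 43 other captured promoters within 1 Mb, where the median member had 12. The groups are small, and their separation was not tested.

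**Figure D2:**
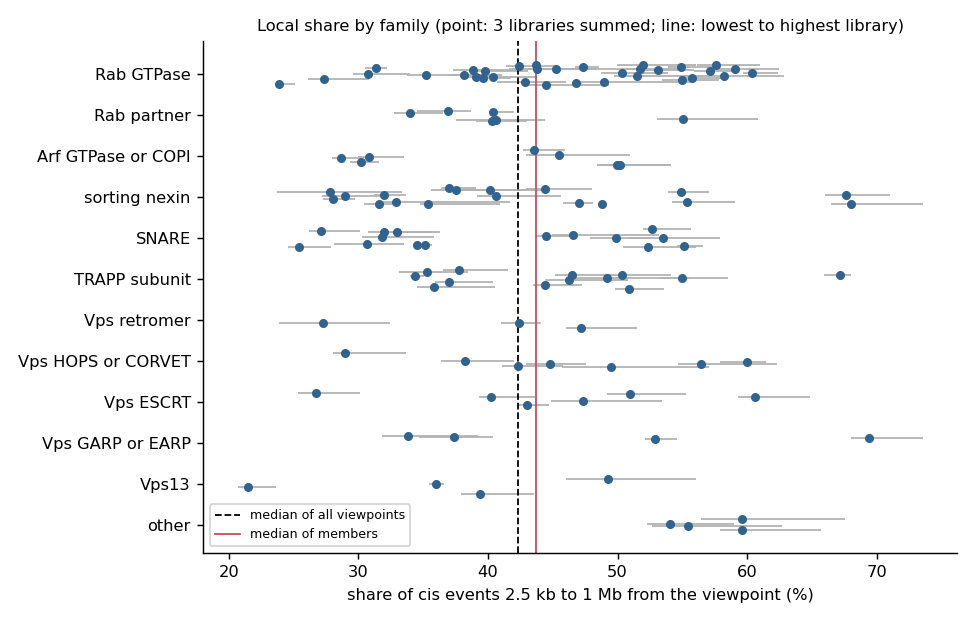
Share of cis events that fell 2.5 kb to 1 Mb from the viewpoint (horizontal, %) for the 120 members with at least 1000 events, by family. Points are sums of 3 libraries, lines run from the lowest to the highest library, the dashed line is the median of all viewpoints (42.3%) and the red line that of the members (43.7%).

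About as many members had most of their local events upstream of the gene as downstream. Upstream means against the direction of transcription, which was known for 118 of the 120 members. In 50 members (42.4%) more than 50% of the local events lay upstream in each of the 3 libraries, and in 51 (43.2%) less, against 39.4% and 47.3% of 6625 viewpoints of all kinds. Among members with at least 5000 events, Rab4b, a GTPase of fast transferrin receptor recycling, leaned most upstream, with 77.3%, 77.3% and 75.5% in libraries a, b and c (76.7% in the sum, 75.4 to 77.9). Snx30 had 70.1%, 73.3% and 73.6% upstream and Stx2 67.2%, 66.9% and 68.0%. The other way, Stx5a, the syntaxin of the Golgi, had 26.9%, 31.5% and 26.2% upstream (28.3% in the sum, 26.7 to 29.9), the ESCRT ATPase Vps4a 31.7%, 34.8% and 34.1%, and Rab8b 36.8%, 34.2% and 34.1%. In all 6 the 3 libraries lay on the same side of 50%, as the choice of extremes from the sum of these libraries favours.

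**Figure D3:**
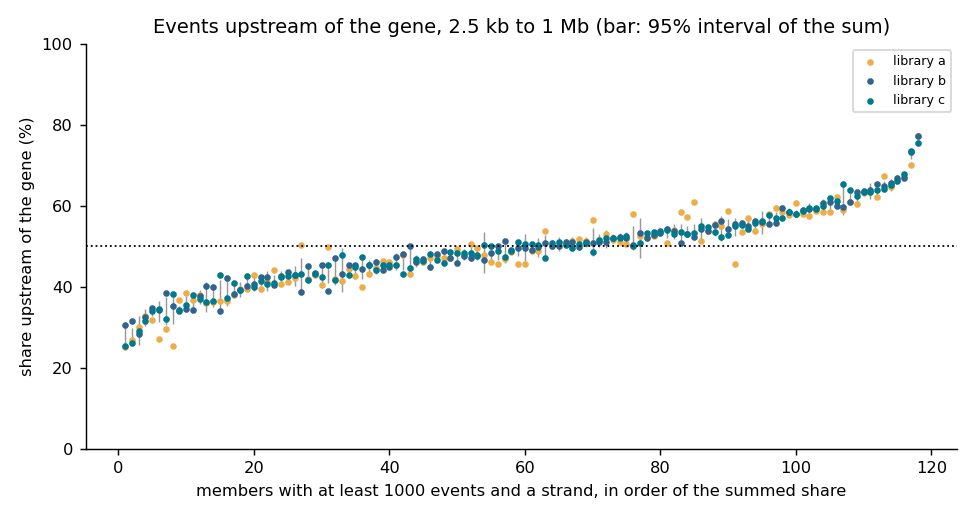
Share of local events upstream of the gene (vertical, %) for 118 members in order of the summed share (horizontal). Points are libraries a, b and c, grey bars the exact 95% binomial interval of the sum, and the dotted line is 50%; Rab4b stands at the upper end with 76.7%.

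Few distal windows passed the test for counts above the level expected at their distance, and their number moved with how the spread was modelled. Counts in 5 kb windows were set against the mean share of all viewpoints at the same distance with a negative binomial test, adjusted over all 2642571 windows (Benjamini-Hochberg), and a window was called at an adjusted p under 0.05 and above expectation in each library. On simulated windows this setting made more false calls than the threshold allows, so the adjusted p-values of windows below are too small. Those of single fragments, which were not simulated, may be too small as well. Folds over expectation are given as mean ± SD with n = 2, or for each library. Of the members' 47052 windows 10 were called (0.0213%), against 852 of all windows (0.0322%). The members' called windows became 4 with no counts left out of the dispersion, 34 with expected counts scaled by the fragments in a window, 5 without library c, and 3284 under a Poisson model, where the spread is that of counting alone. The 10 belonged to 6 of the 120 members (5%), where 531 of 6718 viewpoints (7.9%) had at least 1 called window. At an unadjusted p under 0.05 stood 4.58% of the members' windows and 4.54% of all windows. Both shares of calls were below those over all promoters, a difference that was not tested.

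Trappc9, a subunit of the TRAPP complex that activates Rab proteins at the Golgi, had the lowest adjusted p. In 3 adjoining windows 115, 120 and 125 kb upstream the summed counts were 55, 53 and 86 against 9.63, 9.33 and 8.99 expected. The farthest, chr15:73014091-73019090, held 26, 25 and 35 events in libraries a, b and c, or 11.3, 7.55 and 10.4 times expectation (10.1 ± 1.66, SD, adjusted p = 4.66e-06 by the negative binomial test across all windows). All 3 libraries were far above expectation there. The windows ran over introns and an exon of Eif2c2, which encodes an Argonaute protein of the miRNA pathway, and the centre of the farthest was 1.21 kb from the start of that gene. The nearest captured promoter, Chrac1, was 95.8 kb away. Within it the single DpnII fragment chr15:73017146-73017608, just outside Eif2c2, held 5, 6 and 7 events in libraries a, b and c where 0.818 were expected in all (adjusted p = 0.000265, negative binomial test across fragments). The middle 300 bases of this fragment, chr15:73017227-73017526, plus strand, are shown because they are the end of the contact whose window and fragment had the lowest adjusted p. Capitals mark TTATCT, which is AGATAA read on the other strand, and a CTCF core.
Trappc9 contact fragment: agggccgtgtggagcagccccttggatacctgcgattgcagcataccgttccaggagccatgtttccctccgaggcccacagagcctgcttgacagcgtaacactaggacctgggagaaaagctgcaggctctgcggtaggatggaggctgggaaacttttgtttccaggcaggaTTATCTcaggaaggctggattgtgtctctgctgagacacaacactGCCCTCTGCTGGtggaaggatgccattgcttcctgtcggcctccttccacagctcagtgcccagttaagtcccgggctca
Of chromosome 15 fragments within 10% of its length, 29.5% held the GATA word and 2.37% the CTCF core, so a GATA match is common in such fragments. They were not matched for GC content. Among the called fragments of the other members, none held the CTCF core and only that of Snx14 held the GATA word. A match is a description of letters, not of a bound factor.

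Rab22a, a GTPase of early and recycling endosomes whose fragment also carries Ppp4r1lps, had contacts farther off. Windows 810 and 815 kb downstream held 13, 22 and 12 and 10, 13 and 19 events in libraries a, b and c, summing to 47 and 42 against 3.99 and 4.01 expected (adjusted p = 0.0252 and 0.0278 by the negative binomial test). The folds in libraries a, b and c were 13.9, 14.4 and 7.86 in the first window and 10.6, 8.43 and 12.5 in the second, so b and c lay on opposite sides of a in the second. They covered chr2:174293007-174303006 over exons of Slmo2, whose captured promoter lay 1.52 kb from the second window's centre. The plot of observed over expected counts shows a second rise far upstream, where, 619 kb away, the fragment chr2:172866142-172867108 was called with 1, 8 and 7 events against 0.519 (adjusted p = 0.0115, negative binomial test across fragments), 20.6 kb from the start of Rbm38. Between these rises the windows nearer to Rab22a stood at or below expectation for the most part.

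Rab5a, the master GTPase of the early endosome and a CLEAR promoter, had called windows 205 and 220 kb downstream, at chr17:53821143-53826142 over Sgol1 and chr17:53836143-53841142 between genes. They held 8, 5 and 6 and 4, 13 and 5 events in libraries a, b and c, where 2.37 and 2.18 were expected in the sum (adjusted p = 0.0349 and 0.00882, negative binomial test). The counts are small and the libraries spread widely (14.6, 5.61 and 6.45-fold in the first window and 8.07, 16.0 and 5.73-fold in the second). Rab5a also leaned downstream as a whole, with 27.3% of its local events upstream. The promoters of Rab5a and Rab22a are shown because these endosomal Rab genes had called contacts and differ in their words. They are given on the gene's strand, 5′ to 3′, with CLEAR, GC-box, CCAAT, ETS and AGATAA words in capitals. The windows lay at chr17:53618309-53618608 and chr2:173485096-173485395 of mm9, both on the plus strand. Rab22a held 7 GC-boxes and no CLEAR word, Rab5a 1 of each.
Rab5a promoter: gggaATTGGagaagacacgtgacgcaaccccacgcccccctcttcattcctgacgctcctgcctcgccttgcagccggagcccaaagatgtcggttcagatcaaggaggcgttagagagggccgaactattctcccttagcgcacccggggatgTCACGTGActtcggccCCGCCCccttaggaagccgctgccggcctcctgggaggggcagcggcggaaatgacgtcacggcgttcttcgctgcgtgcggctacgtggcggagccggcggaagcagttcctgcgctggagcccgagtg
Rab22a promoter: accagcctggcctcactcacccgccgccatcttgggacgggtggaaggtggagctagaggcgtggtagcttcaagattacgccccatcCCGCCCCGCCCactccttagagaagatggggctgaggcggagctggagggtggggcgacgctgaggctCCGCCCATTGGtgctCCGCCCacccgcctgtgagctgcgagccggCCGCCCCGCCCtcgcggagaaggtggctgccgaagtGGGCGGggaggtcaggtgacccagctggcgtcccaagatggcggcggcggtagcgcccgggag

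The other 3 members with called windows had 1 each. Snx14, a sorting nexin at contacts of the endoplasmic reticulum with lipid droplets, had 30, 50 and 55 events in libraries a, b and c 780 kb upstream over Mthfs, at chr9:89111369-89116368, against 14.4 expected in the sum (9.10 ± 0.860-fold, SD, adjusted p = 0.0226, negative binomial test). It lay in the deeply captured stretch of chromosome 9, and the fragment chr9:89107391-89109667 beside the window was called too, with 9, 16 and 10 events against 1.38. Rab10, a GTPase of exocytosis and endosome recycling, had 46, 97 and 96 events 75 kb downstream at chr12:3232433-3237432 over 1700012B15Rik, against 56.6 (3.97 ± 0.680-fold, SD, adjusted p = 0.0299, negative binomial test), and 2 of its fragments there were called, chr12:3235009-3235510 and chr12:3235820-3237360, with 46 and 44 events against 4.93 each. The midpoint of the second fragment was 0.021 kb from the start of that gene. Trappc3, a core TRAPP subunit, had 67, 92 and 94 events 35 kb upstream at chr4:125901991-125906990, over a miRNA model (AL732624.1), against 66.9 (3.88 ± 0.267-fold, SD, adjusted p = 0.0182, negative binomial test).

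**Figure D4:**
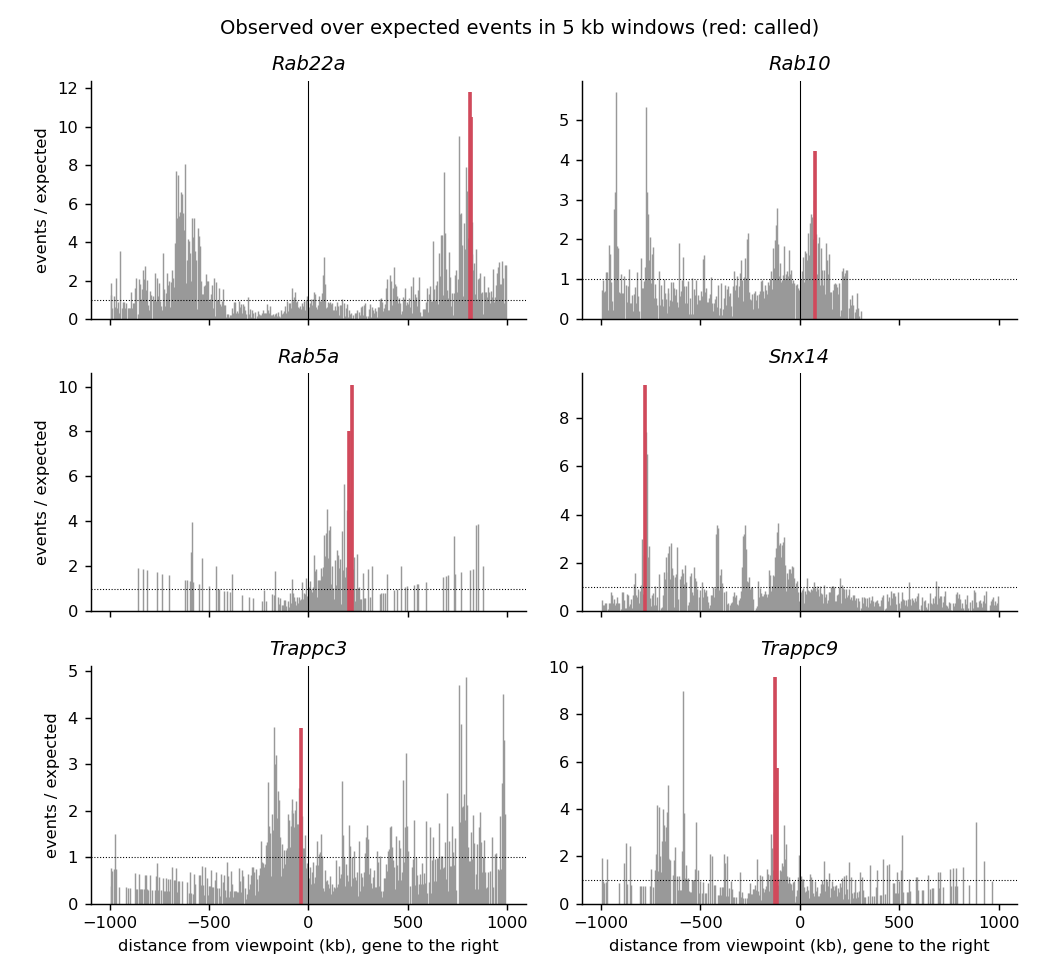
Observed over expected events in 5 kb windows (vertical, sum of 3 libraries) against distance from the viewpoint in kb (horizontal, the gene to the right) for the 6 members with called windows. Red lines are the 10 called windows and the dotted line is 1; the called windows of Trappc9 stand 115 to 125 kb upstream and those of Rab22a 810 to 815 kb downstream.

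Single libraries and settings decided several of these calls. The farthest Trappc9 window and its fragment, and the Trappc3 window, were called whichever library was left out. Without library b the call was lost at the Rab22a window 810 kb away, at Rab10, at the Rab5a window 220 kb away and at the Trappc9 window 115 kb away, and all called fragments except that of Trappc9 were lost. Without library c the fragment of Rab22a and the longer one of Rab10 were lost, and the window call was lost at the Rab22a window 815 kb away, at Rab10, Snx14, the Rab5a window 205 kb away and the Trappc9 windows 115 and 120 kb away. Without library a only the Rab5a window 205 kb away was lost among the windows, and among the fragments only that of Snx3, described next. With expected counts scaled by the fragments in a window, the calls of Trappc3, Snx14 and the Rab5a window 205 kb away were lost although the count of calls rose. Without chromosome X and the deep chromosome 9 stretch the call of Trappc3 was lost, and Snx14, which lies in that stretch, entered no test. At a minimum of 5000 events Trappc9, with 4369, and Rab5a, with 2886, entered no test, so their windows were not called. With no counts left out of the dispersion, those of Trappc3, Snx14, Rab10, the Rab22a window 815 kb away, the Rab5a window 205 kb away and the Trappc9 window 115 kb away were lost, and among the fragments both of Rab10 and that of Snx3. None of the called windows or fragments shared a 30-base word with its viewpoint.

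Over single fragments, 6 of the members' 515361 fragments were called (0.00116%), against 788 of 28839827 over all viewpoints (0.00273%). At an unadjusted p under 0.05 stood 3.33% of the members' fragments and 3.27% of all. Besides the 5 fragments named above, the sixth belonged to Snx3, 985 kb upstream at chr10:41236883-41237607, and was 2.06 kb from the start of Cd164. It held 1, 1 and 3 events in libraries a, b and c against 0.0473 expected (adjusted p = 0.0253, negative binomial test across fragments), and the call was lost whichever library was left out. A contact that rests on 5 events is at the limit of this depth.

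Trafficking promoters met the surroundings of other captured promoters more often than expected at their distance, as promoters of all kinds did. Fragments 1 and 2 places from another captured promoter were used, since the promoter fragment itself is pulled down by its own probes. The expected counts took no account of the length of these fragments, and its effect on the ratios was not tested. Over 1774 pairs within 1 Mb the observed counts were 1.38, 1.37 and 1.36 times the expected ones in libraries a, b and c (1.37 ± 0.00974, SD, n = 2), against 1.39 ± 0.0144 over 91087 pairs of all viewpoints. The ratio was 1.08 over the 288 pairs under 100 kb and 1.82 over the 1486 pairs from 100 kb to 1 Mb, where all viewpoints had 1.11 and 1.82. For the members it was 1.12 with fragments 1 place away alone and 1.55 with those 3 to 5 places away (1.52 for all viewpoints), so it was lowest next to the promoter. Among 87 members with at least 10 expected events, 71 (81.6%) were above 1, against 85.2% of 5032 viewpoints.

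Among these 87 members the range was wide. Rab30, a GTPase of the Golgi, had the highest ratio with 71 events against 17.4 (4.08-fold), followed by Snx14 with 462 against 127 (3.65-fold). Arf3 had the lowest, with 46 against 75.4 (0.61-fold). Members below the cut of 10 expected events could stand higher: Rab22a had 72 events against 9.97 (7.22-fold). The 5 pairs with the highest ratio, among 408 with at least 5 expected events, were chosen after their values were seen. Rab30 met the flanks of Pcf11, 71.2 kb away, with 11, 15 and 11 events in libraries a, b and c against 6.82 in the sum (5.42-fold), and seen from Pcf11 the ratio was 2.37 with 10 events. Snx14 met those of Zfp949, 109 kb away, with 57, 73 and 68 events against 38.6 (5.14-fold), and seen from Zfp949 the ratio at Snx14 was 3.47. Snx14 also met those of Mthfs, 772 kb away and beside its called window, with 14, 8 and 8 events against 5.52 (5.44-fold), but in the reverse view 2 events stood against 3.84 expected (0.52-fold). Vamp3, a vesicle SNARE of recycling endosomes, met the flanks of Park7, 148 kb away, with 10, 11 and 10 events against 5.46 (5.68-fold), and the reverse view held 1 event against 0.629 expected. Rab8b met those of Fam96a, 793 kb away, with 23, 24 and 28 events against 12.7 (5.92-fold), and 3.79-fold in the reverse view. In each of these 5 pairs all 3 libraries were above expectation, as the choice by ratio favours. Over the 408 pairs, 144 had all 3 libraries above expectation and 74 had all 3 below. The same count for pairs of all viewpoints, whose summed ratio was above 1 too, is not given here, so this is no trait of trafficking pairs.

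Trafficking genes that lie near each other met in no common direction. There were 23 pairs of members within 1 Mb, and 5 of them had at least 5 expected events in both directions. Vamp5 and Vamp8, vesicle SNAREs 10.4 kb apart on chromosome 6, met each other's flanks less often than expected, with 14 events against 23.3 (0.60-fold) and 16 against 31.0 (0.52-fold), and the ratio was below 1 in each library both ways. Trappc2 and Rab9, a late endosome GTPase, 39.2 kb apart on chromosome X, were above 1 in each library both ways, with 141 against 112 (1.26-fold) and 88 against 63.5 (1.39-fold). Snx1, a sorting nexin that works beside the retromer, and Snx22, 55.2 kb apart, had ratios of 0.91 and 1.33, so the directions did not agree. Rab8b met the flanks of Snx1, 794 kb away, with 12, 21 and 14 events against 12.7 in the sum (3.71-fold), and 2.65-fold in the reverse view with 15 events. Fam96a, named above, lay on the same side of Rab8b at 793 kb. The flanks of Snx1 and Fam96a thus lay in the same neighbourhood, and contacts of Rab8b with them were not told apart. For Rab8b and Snx22, 850 kb apart, the ratios were 1.66 and 2.02. The last 3 of these pairs lie on the deeply captured stretch of chromosome 9. The other 18 pairs, among them Rab1b, Snx32, Snx15 and Vps51 on chromosome 19, Trappc4 and Vps11 on chromosome 9 and Rab7 with Rab43 on chromosome 6, had fewer than 5 expected events in at least 1 direction and were not read.

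The 3 fragments of Rab43 gave a comparison within a single gene. Over 396 windows of 5 kb that lay at least 10 kb from all of them, the profiles of the outer fragments, 2.36 kb apart with 4174 and 8176 events, correlated at Pearson's r = 0.93 (Spearman's rho = 0.73). The middle fragment, with 105 events, correlated with them at r = 0.58 and 0.65. The lower values go with its few counts, and their cause was not tested.

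Other genes of the trafficking machinery were counted from a list of 102 genes outside the name rule, such as clathrin adaptors, COPII, COG and exocyst subunits and the transferrin cycle. Of these 93 were captured, through 94 viewpoints, and 2 of the 87 viewpoints of sufficient depth had a called window, against 7.9% of all. Their median local share was 41.7% and their flank ratio 1.34. The first was Tfrc, the transferrin receptor itself, with 3 adjoining called windows at 90, 95 and 100 kb over Zdhhc19 (chr16:32506042-32521041). These held 87, 100 and 84 events, or 5.46, 6.67 and 5.80 times expectation (adjusted p = 0.00701, 0.000135 and 0.00417, negative binomial test across all windows). The other was Ap3s1, a subunit of the adaptor of lysosome-bound vesicles, whose fragment also carries Atg12 and which had 1 window 145 kb away with 116 events (6.36-fold, adjusted p = 0.00484, negative binomial test).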

How the data were processed

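Ligation contacts of captured promoters were counted in 3 erythroid Capture-C libraries. Per the labels the authors used Trim Galore and Bowtie on mm9 (versions not given in the sources used here). The study's methods name CCseqBasic or its modified form CCseqBasicM, without saying which served this design, and CaptureCompare. The deposited signal values are unique ligation events per 100000 cis events of the same viewpoint and library, in 3 unnamed columns. Dividing each by the smallest value of its viewpoint and library gave whole counts for 100% of the values (tolerance 0.01 events), and the count test ran on these. The list held 7197 viewpoints under 7189 names. The 8 repeated names were left out, 5 had no contacts, and 7176 were used. Viewpoints under 1000 events entered no test.

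Expected counts were the mean share of all viewpoints at the same distance times the viewpoint's total from 2.5 kb to 1 Mb. Dispersion was estimated per distance by moments, setting aside the top 0.1% of standardised counts, in 199 window distances and 50 distance bins of fragments. Leaving out the highest counts makes the dispersion smaller and the adjusted p-values lower by construction. On simulated windows the caller at this setting made more false calls than its threshold allows, so the adjusted p-values of windows are too small. Single fragments were called at the same setting but were not simulated, so their adjusted p-values may be too small as well. The study's own caller, peaky, was not run. GENCODE vM1 gave genes and strands, RefSeq the promoters. Python 3.11.15, numpy 2.4.6, scipy 1.17.1, pandas 2.3.3 and matplotlib 3.10.9 were used.

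The members, the lists and the words were chosen with earlier results of these data known, and the CTCF word was added after the files were seen. Most members were named by rule: those with calls, the 3 highest and 3 lowest in depth, local share and upstream share (the last 2 at 5000 events or more), members within 1 Mb of another, the Arf family, CLEAR promoters, and the retromer with Snx3. Others, such as those of the highest flank ratios and of uncalled windows, were named after their values were seen. No label says that the libraries came from separate animals, so the spread between them may be technical.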

Additional observations from a re-analysis of the deposited data

How the results depend on the processing

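Of 43 alternatives, 24 left the value within its limit, 1.5 times for a count and 1 SD for a ratio or share, and 19 did not. The members' called windows (10) became 4 with no counts left out of the dispersion, 19 with the highest 1% left out, 3284 with Poisson counts, 16 in 2 kb windows, 6 in 10 kb windows, 6 at a minimum of 5000 events and 34 with expected counts scaled by the fragments in a window. The 4 that remained with no counts left out were those of Rab22a at 810 kb, Rab5a at 220 kb and Trappc9 at 120 and 125 kb. Leaving out a library gave 5 to 10 windows. Without chromosome X and the deep chromosome 9 stretch the count was again 10, but the Trappc3 window was not among them. Snx14, which lies in that stretch, was left out by this setting. Called fragments (6) became 3, 17 and 3999 with no counts left out, the highest 1% left out and Poisson counts. Over all viewpoints the called windows (852) became 432, 1611 and 167272 under the same 3 settings.

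The median local share (43.7%) was 37.5% from 10 kb to 1 Mb and 21.6% from 2.5 to 100 kb, which cover narrower ranges by construction. The promoter flank ratio (1.37) was 1.12 for fragments 1 place away, 1.55 for those 3 to 5 places away, 2.03 with members weighted equally and 1.34 without chromosome X and the chromosome 9 stretch, an alternative chosen after seeing the data; it stayed above 1 in all, and the cause of the differences was not tested. Members with a CLEAR site (7) were 11 over whole viewpoint fragments and 14 with CACGTG. No paired analysis was possible because there was 1 group and the columns carry no replicate number. The number of events limits single calls: a window called at 200 kb or more rested on 19 to 135 events in the sum of 3 libraries. Fragments called at that distance rested on 5 to 35.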

Other observations

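Several members had windows above expectation that missed the adjusted threshold of 0.05 (negative binomial test across all windows). Rab21, an early endosome GTPase with a CLEAR promoter, had 66 events over Tspan8, 500 kb away, against 8.57 expected (6.89, 6.91 and 9.07-fold in libraries a, b and c, adjusted p = 0.151, negative binomial test). Stx2 had 40 events over Mrps17, 710 kb away, against 4.82 (8.14, 8.01 and 8.71-fold, adjusted p = 0.145, negative binomial test), the closest agreement of the 3 libraries among the windows named here. Vps4a, the ATPase that takes ESCRT complexes apart, had 42 events over Psmd7, 550 kb away, against 5.88 (5.88, 6.72 and 8.16-fold, adjusted p = 0.175, negative binomial test). Rab18, a GTPase of lipid droplets and the endoplasmic reticulum, had 50 events in an intron of Epc1, 270 kb away, against 8.20 (5.10, 7.31 and 5.28-fold, adjusted p = 0.124, negative binomial test). Vamp3 had 27 events over Dnajc11, 915 kb away, against 3.14 (9.70, 13.3 and 3.32-fold, adjusted p = 0.166, negative binomial test). These windows were named after their values were seen.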
